A study of Mus musculus with 8 samples.

Results

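The fibroblast activation and fibrosis genes described here are Postn, Cilp, Meox1, Comp, Thbs4, Tnc, Ltbp2, Fn1, Fap and Lox, 10 of the 32285 genes in the count tables, and they were chosen by symbol. They were measured by single-nucleus RNA sequencing in whole hearts of 4 wild-type (WT) and 4 tafazzin-knockout (Taz-KO) male mice, all 9 weeks old, with 1 library per mouse. Tafazzin is the acyltransferase that remodels cardiolipin in mitochondria, its loss causes Barth syndrome in humans, and the question was whether hearts without it show a response of activated fibroblasts or myofibroblasts. The paper states as a limit that this age comes before the rather late onset of cardiac impairment expected in these animals. Levels were followed mainly in 37136 fibroblast nuclei of 151264 nuclei kept. The strain, the kind of knockout allele and whether the WT mice were littermates are not given in the sources used here.

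Fibroblasts of the heart make and maintain the collagen matrix between the cardiomyocytes. After injury or under load they become activated and may turn into myofibroblasts, which add contractile fibres of smooth muscle type, secrete fibrillar collagen, and surround it with matricellular proteins that change how cells grip the matrix. Periostin (Postn), tenascin C (Tnc), the thrombospondins Thbs4 and Comp, and Cilp belong to the secreted side of that response. Meox1 is a homeobox transcription factor switched on in activated fibroblasts, Fap is a protease on the surface of such cells, Lox cross-links collagen and elastin, Fn1 encodes the scaffold protein fibronectin, and Ltbp2 encodes a protein of the microfibrils.

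The genes lie on 10 different chromosomes, with coordinates given for the mouse build GRCm38 (GENCODE vM21). Postn (ENSMUSG00000027750) spans chr3:54361109-54391037 on the plus strand and Cilp (ENSMUSG00000042254) spans chr9:65265180-65280605, also on the plus strand. Meox1 (ENSMUSG00000001493) lies at chr11:101877510-101894374, Comp (ENSMUSG00000031849) at chr8:70373558-70382066 and Thbs4 (ENSMUSG00000021702) at chr13:92751590-92794818. Tnc (ENSMUSG00000028364) lies at chr4:63959785-64047015, Ltbp2 (ENSMUSG00000002020) at chr12:84783212-84876532 and Fn1 (ENSMUSG00000026193) at chr1:71585520-71653200. Fap (ENSMUSG00000000392) lies at chr2:62500943-62574075, and Lox has the identifier ENSMUSG00000024529. None overlaps another gene on its own strand. Meox1, Tnc, Ltbp2, Fn1 and Lox overlap an antisense gene in this annotation.

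The promoters of Postn and Cilp, the 2 members with the highest fitted fold changes in fibroblasts, are shown for orientation, each with 250 bases before and 50 bases from the annotated start. RefSeq promoter sequences on GRCm38.p6 were at hand for 5 of the 10 members. Capitals mark TATAAA, the TATA box, in the Postn promoter at chr3:54360857-54361156 (plus strand), where its first base lies at position -26 from the start.
Postn: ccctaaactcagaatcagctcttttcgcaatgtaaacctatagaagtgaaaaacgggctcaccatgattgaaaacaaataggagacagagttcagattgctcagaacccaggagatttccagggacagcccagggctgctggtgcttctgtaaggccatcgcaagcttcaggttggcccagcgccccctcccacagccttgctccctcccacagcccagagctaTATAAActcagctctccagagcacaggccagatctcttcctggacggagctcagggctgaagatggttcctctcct
In the Cilp promoter at chr9:65264930-65265229 (plus strand), capitals mark CAGCTG, an E-box, with its first base at position -39.
Cilp: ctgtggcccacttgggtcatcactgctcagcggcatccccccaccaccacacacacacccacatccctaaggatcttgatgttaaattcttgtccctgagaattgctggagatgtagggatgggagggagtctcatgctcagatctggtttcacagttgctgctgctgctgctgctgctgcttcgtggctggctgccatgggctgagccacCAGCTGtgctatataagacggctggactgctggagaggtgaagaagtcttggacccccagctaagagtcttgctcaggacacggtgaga
Both strands were searched for the TATA box and the E-box as spelled above. The search also covered TGAGTCA, the site of AP-1, then GGAATG, the site of TEAD factors, and CAGACA, the site of SMAD factors. Of 32851 mouse promoters of this length, 13.6% hold the TATA box and 16.3% the E-box on either strand, so both matches are common. A second annotated start of Postn holds none of the 5 motifs, and neither does the promoter of Ltbp2.

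The 4 WT libraries held 21190 to 29016 barcodes, and the Taz-KO libraries held 3492 to 36308. Taz-KO mice 4685 and 5301 stood apart, with 3492 and 5571 barcodes against at least 21190 in every other library. In mouse 4685, 79.9% of the nuclei fell into clusters that no marker list named, against 20.7% to 32.4% in the other mice. Total UMI counts (unique molecular identifiers, 1 per captured RNA molecule) ranged from 20025456 in Taz-KO 5301 to 348080773 in WT 4909. Any pair of libraries shared 2 to 294 barcode sequences, at most 1.04% of the smaller library. Taz itself, in UMIs per 1000000 UMIs outside mitochondrial genes (CPM) over all nuclei, was at 41.0 to 41.4 in the WT mice and at 24.9, 31.3, 21.9 and 28.8 in the Taz-KO mice (log2 fold change -0.69 ± 0.16 SE, adjusted p = 0.0387, edgeR), so transcripts counted for this gene remained in the knockouts.

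Fibroblasts were 3 clusters named fibroblast-like from a fixed list of 8 markers. The median level over mice of Pdgfra was 549 CPM in them, against 50.8 in cardiomyocytes and 118 in endothelial cells, and that of Bicc1 was 1334 CPM against 93.7 and 189. Ryr2, the calcium channel of cardiomyocytes, was at 1211 CPM against 11198 in cardiomyocytes. Decorin (Dcn), a small proteoglycan of the fibroblast matrix, was at a median of 3485 CPM in fibroblasts but also at 2459 in endothelial cells and 2593 in macrophages. Fibroblast nuclei numbered 7443, 7565, 6475 and 3612 in WT mice 4686, 4909, 5355 and 5356, and 198, 5357, 5795 and 691 in Taz-KO mice 4685, 4910, 5300 and 5301. Values per mouse are given in these 2 orders throughout. The median UMI count per fibroblast nucleus was between 2887 and 7877. The median share of mitochondrial UMIs in them was 12.2% to 29.9% in the WT mice and 2.51% to 30.1% in the Taz-KO mice.

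In fibroblasts, no member passed the test between genotypes. A fitted fold change above 0 was found for 8 of the 10, beside 50% of all genes tested. Periostin, Cilp and tenascin C had the largest values, with log2 fold changes between 0.86 and 0.97, and Fap and Lox lay slightly below the WT level. Taz-KO mouse 5301 did not share the pattern of the other 3 knockouts for most secreted members. The member count past an adjusted p of 0.05 was 0 of 10 (edgeR's quasi-likelihood test on counts summed per mouse, 17710 genes tested), where 0.361% of all genes tested passed. At an unadjusted p under 0.05 there were 2 members, Postn and Tnc, against 9.67% of all genes. With DESeq2 the count was again 0, while that tool called 343 genes. The median log2 fold change of the 10 members was 0.57, beside 0.00032 over all genes tested. This was not particular to fibroblasts. The members' median was 0.70 in macrophages, 0.60 in endothelial cells and 0.35 in cardiomyocytes, with 8, 7 and 7 of 10 above 0.

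**Figure D1:**
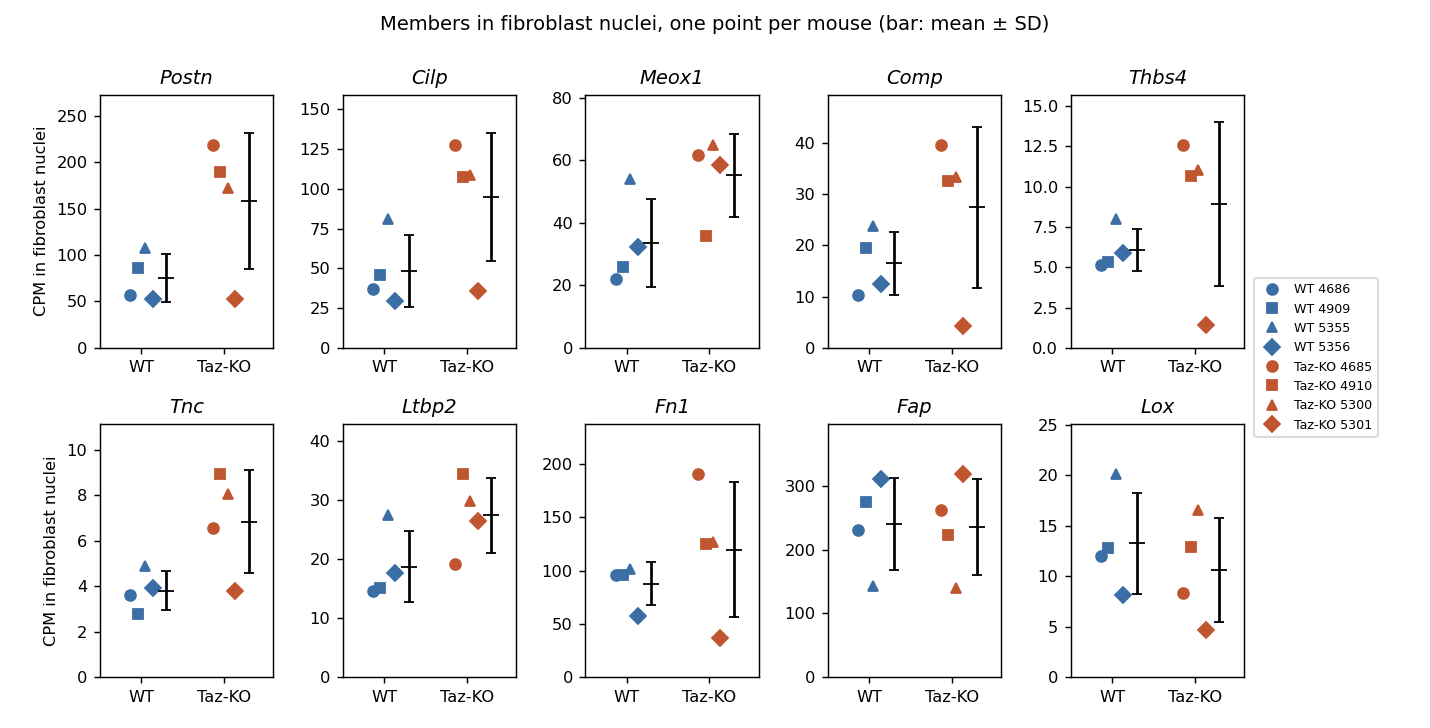
Level of each member in fibroblast nuclei, in CPM, with 1 point per mouse, 4 WT and 4 Taz-KO mice, and the mean with its SD. Postn lies between 52.7 and 108 CPM in the WT mice and between 173 and 218 CPM in 3 Taz-KO mice, while Taz-KO mouse 5301 lies at 52.3.

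Among the matricellular members, Postn stood at 56.5, 85.9, 108 and 52.7 CPM in WT hearts and 218, 189.6, 173 and 52.3 CPM in Taz-KO hearts. Of the knockouts, 3 were thus above every WT mouse, and 5301 was the lowest of all 8 mice. The means were 75.7 ± 25.9 and 158 ± 73.1 CPM (SD, n = 4 mice each), with a log2 fold change of 0.97 ± 0.40 (SE, adjusted p = 0.457). Without Taz-KO 5301 the log2 fold change was 1.24 ± 0.25 with an adjusted p of 0.0737, the lowest that Postn reached over 17 alternatives (0.0737 to 0.783).

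Cilp, which encodes a secreted protein first described in cartilage, was at 37.2, 45.9, 80.7 and 29.6 CPM in WT hearts and 127, 108, 108 and 35.8 CPM in Taz-KO hearts. The order of the mice resembled that of Postn, with 5301 inside the WT range and the other 3 knockouts above it. The log2 fold change was 0.88 ± 0.40 (adjusted p = 0.531), and the groups overlapped through this 1 mouse.

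Tnc, a large glycoprotein that is scarce in most adult tissue, was the member with the lowest adjusted p. It was at 3.61, 2.79, 4.87 and 3.91 CPM in WT hearts and 6.58, 8.92, 8.06 and 3.77 CPM in Taz-KO hearts, from 922 UMIs in all. The log2 fold change was 0.86 ± 0.28 (adjusted p = 0.297), and the genotypes again overlapped only through mouse 5301.

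The thrombospondins Comp and Thbs4, which bind collagen and other matrix proteins, had smaller fold changes than Postn, Cilp and Tnc. Comp was at 10.4, 19.5, 23.7 and 12.5 CPM in WT hearts and 39.5, 32.6, 33.2 and 4.24 CPM in Taz-KO hearts (log2 fold change 0.66 ± 0.49, adjusted p = 0.832). Thbs4 was at 5.15, 5.30, 8.0 and 5.90 CPM and at 12.6, 10.7, 11.01 and 1.41 CPM (0.52 ± 0.40, adjusted p = 0.840). For both, 3 knockouts lay above all WT mice and 5301 lay below all of them. Without 5301 the values were 0.96 ± 0.27 for Comp and 0.78 ± 0.21 for Thbs4, with adjusted p of 0.192 and 0.179.

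Meox1, the transcription factor of the set, was at 22.0, 26.0, 53.9 and 32.2 CPM in WT hearts and 61.6, 35.7, 64.8 and 58.4 CPM in Taz-KO hearts. All 4 knockouts exceeded 3 of the WT mice, and WT 5355 lay inside the knockout range. The log2 fold change was 0.63 ± 0.28 (adjusted p = 0.523).

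Among the matrix scaffold members, Ltbp2 was at 14.5, 15.1, 27.5 and 17.6 CPM in WT hearts and 19.1, 34.4, 29.8 and 26.4 CPM in Taz-KO hearts (0.51 ± 0.25, adjusted p = 0.587). All 4 knockouts lay above 3 of the WT mice, and WT 5355 lay within the knockout range. Fn1 was at 95.9, 95.5, 101 and 57.8 CPM in WT hearts and 190.3, 125, 127 and 36.3 CPM in Taz-KO hearts (0.35 ± 0.40, adjusted p = 0.951). In each group of Fn1 values, 1 mouse lay far below the others, WT 5356 and Taz-KO 5301.

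The enzymes had fitted values below 0. Fap was at 231, 274, 144 and 310.5 CPM in WT hearts and 262, 224, 139.5 and 318 CPM in Taz-KO hearts (-0.10 ± 0.30, adjusted p = 1.000). Lox was at 12.0, 12.8, 20.1 and 8.16 CPM and at 8.38, 12.9, 16.5 and 4.71 CPM (-0.30 ± 0.36, adjusted p = 0.953). The ranges of the genotypes lay across each other for both genes, and the sign of the Fap value changed with WT 5356 or Taz-KO 5300 left out.

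The CPM of the genotypes in fibroblasts overlapped for all 10 members, where 4.46% of all genes tested did not overlap with the knockouts higher and 1.67% with the knockouts lower. Nuclei taken by their own Pdgfra, Bicc1 and Ryr2 UMIs in place of clusters (49378 nuclei, of which 29862 lay in the fibroblast clusters and the others outside them, with 869 nuclei in Taz-KO 4685 where the clusters gave 198) also gave 0 members past the threshold, with a Postn log2 fold change of 1.00 ± 0.40 and an adjusted p of 0.410. In the nuclei so chosen, the share with an Ltbp2 UMI, each nucleus thinned to 800 UMIs, was 0.938%, 0.929%, 1.37% and 0.852% in WT hearts and 2.22%, 1.86%, 1.88% and 1.45% in Taz-KO hearts. It did not overlap, as was so in this direction for 2.97% of the genes, and the share overlapped for the other 9 members. For Ltbp2 it also did not overlap at 2000 UMIs, but it overlapped unthinned. In the fibroblast clusters the share of Ltbp2 thinned to 800 UMIs overlapped, with WT 5355 at 1.68% and Taz-KO 4685 at 1.54%. Leaving out both libraries of few barcodes gave 0 of 10 as well, with 124 genes called.

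**Figure D2:**
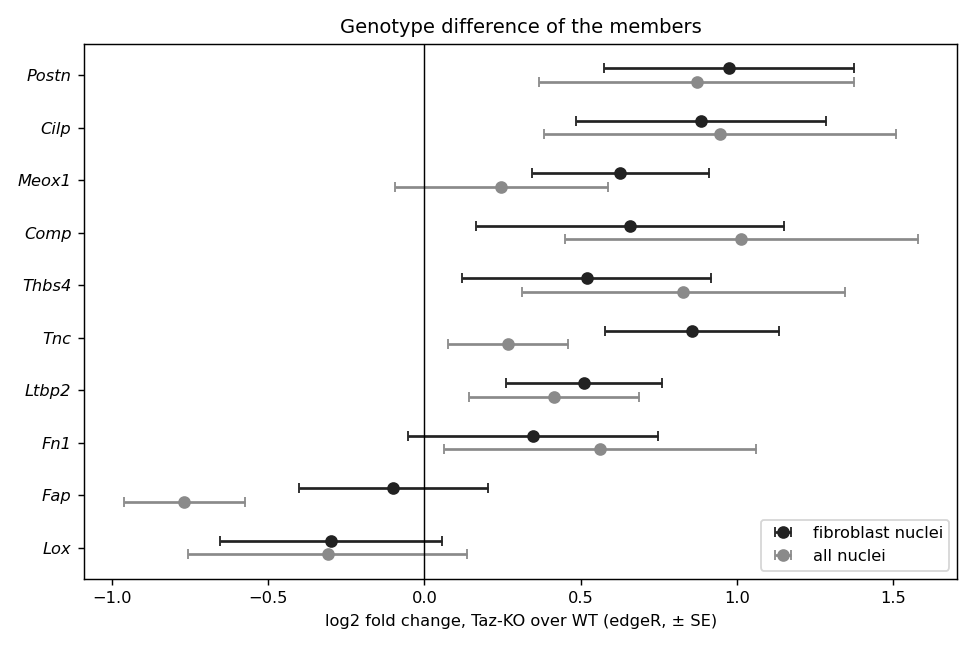
Log2 fold change of Taz-KO over WT with its SE for each member (edgeR, 4 mice per genotype), in fibroblast nuclei and over all nuclei. In fibroblasts 8 of 10 members lie above 0, from 0.35 for Fn1 to 0.97 for Postn, and Fap is lower over all nuclei (-0.77) than in fibroblasts (-0.10).

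Markers of other cell types were present in the fibroblast sums of both genotypes. The 8 cardiomyocyte markers summed to 6723 to 11732 CPM in the WT mice and 3062 to 11221 in the Taz-KO mice, with the lowest value in mouse 5301. The endothelial list (8 genes) summed to 555 to 797 and 173 to 999 CPM, the macrophage list (7 genes) to 397 to 704 and 142 to 749, and the smooth muscle list (6 genes) to 52.1 to 131 and 46.2 to 197. The pericyte list (6 genes) summed to 452 to 752 CPM in WT and 269 to 618 CPM in Taz-KO, and the mesothelial list (6 genes) to 33.4 to 72.9 and 22.1 to 171. Of these lists no gene passed the test. The B-lymphocyte list (5 genes) did not overlap, at 40.9 to 58.5 CPM in WT and 17.0 to 37.8 CPM in Taz-KO, with Cd79a and Cd79b at 0 in some mice. Defining markers of T-lymphocytes (Cd3e, Cd3g), dendritic cells (Flt3, Xcr1) and adipocytes (Adipoq) were also at 0 in some mice. In mouse 5301 the sums of the lymphatic endothelial, mesothelial, pericyte and smooth muscle lists were also the lowest of the 8 mice, as were that of the fibroblast list (8129 CPM) and its share of mitochondrial UMIs (1.57% of the library). Their part in the member values was not tested.

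The order of mice seen for Postn in fibroblasts recurred outside the fibroblast clusters. In endothelial cells Postn was at 56.8, 82.3, 104 and 31.6 CPM in WT hearts and 196, 139.9, 139.9 and 29.2 CPM in Taz-KO hearts. In macrophages it was at 46.9, 68.3, 82.9 and 24.6 CPM and at 234, 117, 123 and 7.91 CPM. In the largest unnamed cluster, 18124 nuclei led by haemoglobin genes, it was at 98.7, 111, 131 and 70.8 CPM and at 379, 195, 186 and 36.2 CPM. Pdgfra was at 223 CPM in this cluster, which has no cell type and may hold fibroblast nuclei. In each of these populations 3 knockouts lay above all WT mice and 5301 lay below all of them. As an alternative for ambient RNA, a share of 0.2 of the fibroblast counts was removed in the proportions of the mouse's whole library. The Postn log2 fold change in fibroblasts was then 0.99 ± 0.41 (edgeR, adjusted p = 0.783). The profile removed was the sum of all barcodes, with Postn at a mean of 54.6 CPM in WT and 108 CPM in Taz-KO hearts. Since it differed between genotypes in the same direction as the fibroblasts, its removal could move the fold change little. The part of ambient RNA was thus not tested.

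**Figure D3:**
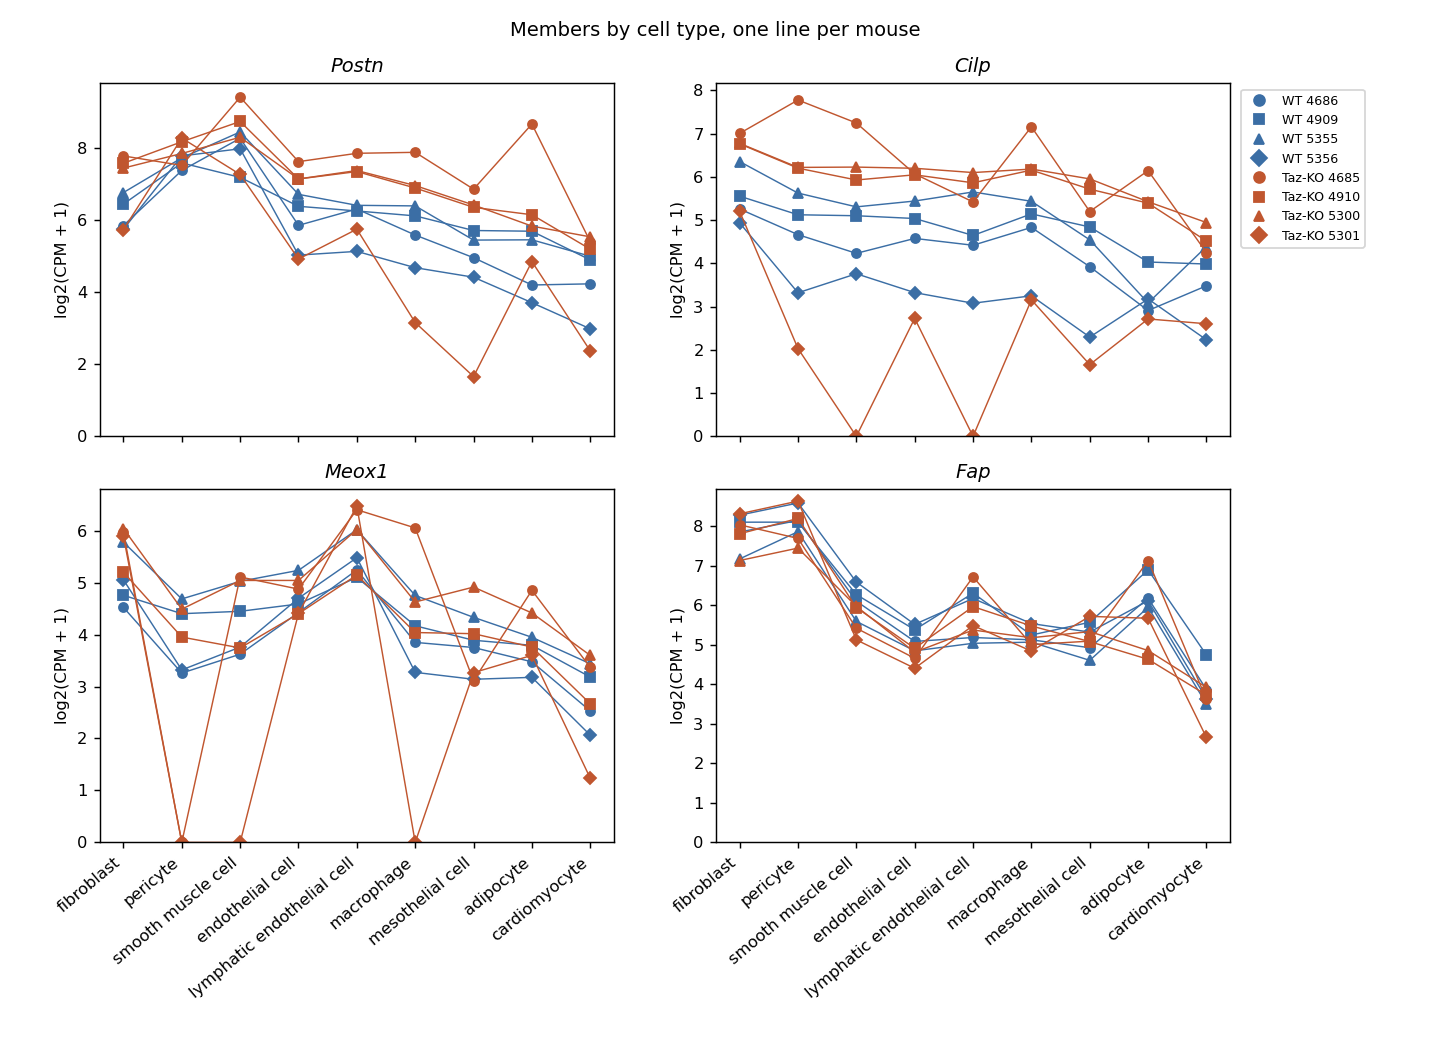
CPM per mouse of members in fibroblasts and other cell types, WT and Taz-KO. For Postn the same mice are high and low in fibroblasts, endothelial cells and macrophages, and Taz-KO 5301 is at or below the WT mice in each of these 3.

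To set the fibroblast level against that of other nuclei of the same mouse, the endothelial level was subtracted. Postn exceeded the endothelial level by -0.242, 3.63, 3.69 and 21.1 CPM in WT hearts and 22.7, 49.7, 32.7 and 23.1 CPM in Taz-KO hearts. These differences did not overlap, where 1.9% of all genes did the same in this direction, but the lowest knockout and the highest WT value were close. They overlapped with clusters at the lower resolution, with doublets kept and with only nuclei of at least 2000 UMIs, so the separation depended on how nuclei were chosen. For Fn1, fibroblasts lay below endothelial cells in all 8 mice, with differences of -27.5, -18.7, -41.2 and -17.0 CPM in WT hearts and -94.4, -59.0, -65.3 and -41.3 CPM in Taz-KO hearts. That gap did not overlap either, against 1.67% of all genes in this direction, and did not overlap in any of the same 3 alternatives. Yet WT 5355 at -41.18 CPM and Taz-KO 5301 at -41.29 CPM nearly met.

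Against macrophages, the fibroblast excess of Tnc was 1.72, 1.46, 2.01 and 2.83 CPM in the WT mice and 3.57, 6.70, 4.96 and 3.77 CPM in Taz-KO hearts. These did not overlap, as was so for 1.66% of all genes in this direction, but they overlapped with clusters at the lower resolution. Against endothelial cells the Tnc excess overlapped, at -0.356, -0.388, 1.35 and 0.261 CPM in WT and 3.88, 5.77, 2.87 and -1.85 CPM in Taz-KO hearts. The Postn excess over macrophages also overlapped, since mouse 4685 had 15.8 CPM less in fibroblasts than in macrophages. The Meox1 excess overlapped against both types. Over endothelial cells it was 1.52, 2.97, 17.2 and 7.22 CPM in WT and 33.3, 15.6, 32.9 and 38.2 CPM in Taz-KO hearts. Over macrophages mouse 4685 was at -3.71 CPM. These differences are descriptions chosen after the levels were seen and carry no test.

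The share of fibroblast nuclei with at least 1 UMI was computed after thinning each nucleus to 800 UMIs, since depth differed between libraries. For Postn the thinned share was 3.95%, 6.0%, 6.99% and 2.90% in the WT mice and 14.96%, 11.7%, 11.1% and 2.78% in the Taz-KO mice. In endothelial cells of the same mice it was 4.11%, 6.20%, 7.30% and 2.20%, and 15.7%, 10.1%, 10.2% and 1.74%. Fibroblasts exceeded endothelial cells in 4 of 8 mice only, so in the other mice the fibroblast share of Postn was no higher than that of endothelial cells. Against macrophages it was higher in 7 of 8 mice. Unthinned, the fibroblast shares were 22.8%, 35.1%, 29.0% and 11.6% in WT and 67.2%, 42.8%, 32.5% and 6.80% in Taz-KO.

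Other members separated fibroblasts from endothelial cells more clearly. Cilp, Meox1, Ltbp2 and Fap had a higher thinned share in fibroblasts than in endothelial cells in 8 of 8 mice, Thbs4 and Lox in 7, Tnc in 5, and Comp and Fn1 in 0. For Fap the share was 15.2%, 17.7%, 9.93% and 19.3% in WT fibroblasts and 16.5%, 14.8%, 10.0% and 19.9% in Taz-KO fibroblasts, beside 1.32% to 3.65% in endothelial cells. Fap thus set fibroblasts apart from endothelial cells in both genotypes, and its shares overlapped between them. The mean share was higher in Taz-KO than in WT fibroblasts for 8 of 10 members, with or without thinning and also after thinning to 2000 UMIs.

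Across the 9 cell types tested, 1 member had its highest mean level in fibroblasts. Cilp was at 71.6 ± 39.2 CPM there (SD over 8 mice) and was highest in fibroblasts in 7 of 8 mice, with pericytes next at 60.4 ± 69.0 CPM, a difference within that spread. The pericyte mean rested on Taz-KO 4685, at 218 CPM from 14 nuclei, and was 37.8 CPM without it. Postn was highest in smooth muscle cells at 327 ± 170 CPM, followed by pericytes at 224 ± 50.3 CPM and then by fibroblasts. In pericytes, the mural cells of capillaries, Postn lay at 165, 191, 210.4 and 219 CPM in WT hearts and 182, 287, 229 and 308 CPM in Taz-KO hearts, and mouse 5301 was the highest of all 8. Fibroblast Postn exceeded pericyte Postn in 1 of 8 mice.

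Fap was highest in pericytes at 281 ± 79.3 CPM and then in fibroblasts at 238 ± 68.1 CPM, a difference smaller than either SD but found in 7 of 8 mice. It lay at 13.02 CPM in cardiomyocytes. Lox was highest in smooth muscle cells at 34.8 ± 16.6 CPM in 8 of 8 mice, with fibroblasts next at 11.9 ± 4.90 CPM. Meox1 was highest in lymphatic endothelial cells at 55.9 ± 22.0 CPM and next in fibroblasts at 44.3 ± 17.2 CPM, and the 2 types overlapped over mice.

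Of these 9 types, Tnc was highest in lymphatic endothelial cells at 42.5 ± 27.9 CPM, followed by smooth muscle cells at 14.9 ± 16.8 CPM, which was 9.87 CPM without Taz-KO 4685. Ltbp2 was highest in adipocytes at 46.6 ± 32.1 CPM, with fibroblasts next at 23.1 ± 7.42 CPM. Fn1 was at 173 ± 86.2 CPM in pericytes and 172 ± 113 CPM in smooth muscle cells, and fibroblasts ranked 6 of 9. Comp was at 38.2 ± 26.8 CPM in smooth muscle cells and 37.8 ± 59.3 CPM in pericytes, with fibroblasts again at rank 6. The pericyte mean of Comp was set by Taz-KO 4685 at 182 CPM, and without this mouse it was 17.3 CPM and fibroblasts ranked 4 of 9. Thbs4 was highest in smooth muscle cells at 33.9 ± 71.3 CPM, a mean set by 1 mouse, Taz-KO 4685 at 209 CPM, without which it was 8.90 CPM. Of the 1072 smooth muscle nuclei, 588 came from a sub-cluster of low depth led by Dnah7c and Dct together with muscle genes.

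**Figure D4:**
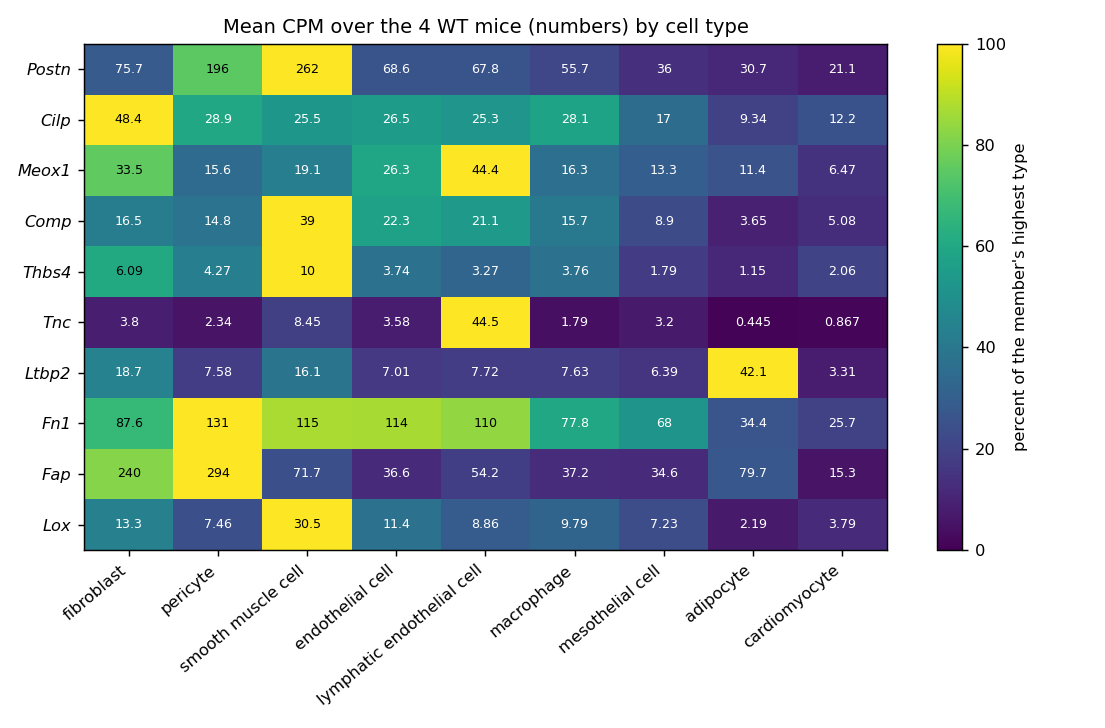
Mean CPM over the 4 WT mice of each member in each of the 9 cell types, printed in the cells, with colour as percent of that member's highest type. Cilp is highest in fibroblasts (48.4 CPM), Fap in pericytes (294) and fibroblasts (240), and Postn in smooth muscle cells (262) and pericytes (196).

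The genes whose WT levels over the 9 cell types were most like those of a member, among 14814 genes compared, are given as a description, since the 9 points share libraries. Clec3b, Serpinf1 and Entpd2 were most like Cilp (Pearson r between 0.983 and 0.984 over 9 types). Grik2, Col5a3 and Kcnip1 were most like Fap (0.968 to 0.973), and Ppp1r14a, Hdgfl2 and Cnn2 were most like Postn (0.955 to 0.978). Enpp3, Tmem64 and Pgf were most like Meox1 and F2rl1, 2900041M22Rik and Lcn2 most like Tnc. Ccn2 and Uchl1 were among the 3 most like both Thbs4 and Lox, beside Dact3 and Myl6. Ubxn4, Rnf24 and Prr16 were most like Ltbp2, Ppp2r5d, Rhob and Ubl5 most like Fn1, and Thap11, Mrpl2 and Sln most like Comp.

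In the cell types other than fibroblasts, 1 member passed the test in 1 type. Cilp was higher in Taz-KO adipocytes, at 69.7, 41.0, 41.9 and 5.56 CPM against 6.51, 15.3, 7.48 and 8.04 CPM in the WT mice. Of the knockouts, 3 were above all WT mice and 5301 was below them all. The log2 fold change was 1.95 ± 0.40 (edgeR, adjusted p = 0.0400), where 0.682% of 10550 genes tested in adipocytes passed in this direction and 1.6% in either. The call rested on 199 Cilp UMIs over 8 mice, with 14 adipocyte nuclei in Taz-KO 4685 and 24 in 5301. It was made in 10 of 16 alternatives, with log2 fold changes of 1.62 to 2.71 over all 16 (adjusted p 0.00153 to 0.256). It was lost with an ambient share subtracted and without WT 4686, 4909 or 5355 or Taz-KO 4910 or 5300. In endothelial cells of the same mice, where it was not called, Cilp was at 22.9, 31.8, 42.4 and 9.004 CPM in WT hearts and 66.1, 65.1, 72.4 and 5.62 CPM in Taz-KO hearts. There too 3 knockouts lay above all WT mice and 5301 below them all, and the part of such RNA in the adipocyte values was not tested.

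No member passed the test in cardiomyocytes, where 15.5% of all genes did, and none of the 10 was called in endothelial cells (0.337% of genes called) or macrophages (0.238%). At an unadjusted p under 0.05 there were 0 members in cardiomyocytes, 2 in endothelial cells and 0 in macrophages, beside 28.7%, 8.36% and 6.41% of all genes. None passed among the 9 tested in lymphatic endothelial cells (0.0725% of genes called) and the 9 tested in pericytes (0.141%), with 2 and 0 members at an unadjusted p under 0.05 (4.91% and 4.83% of all genes). None passed among the 8 tested in mesothelial cells (0.0165%) and the 8 in smooth muscle cells (0.0757%), with 1 and 2 at an unadjusted p under 0.05 (5.13% and 4.87%). In adipocytes 4 of the 6 members tested were at an unadjusted p under 0.05, with fold changes above 0 for Postn, Cilp and Fn1 and below 0 for Fap, beside 18.8% of all genes. Of the members not tested in a type, Thbs4 or Tnc fell under the filter on low counts each time, in adipocytes together with Comp and Lox. Median log2 fold changes of the members tested lay between 0.25 in smooth muscle cells and 0.86 in adipocytes, beside medians of all genes between -0.015 and 0.024.

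Summed over all nuclei of a mouse, 0 of 10 members passed the test, where 5.82% of 22049 genes did, and 1 member, Fap, had an unadjusted p under 0.05, against 21.2% of all genes. In such sums fewer cells of a type and less RNA per cell cannot be told apart. Fap was at 104, 118, 69.7 and 104 CPM in WT hearts and 60.7, 60.3, 54.8 and 69.1 CPM in Taz-KO hearts, without overlap, as was so in this direction for 5.67% of genes. Its log2 fold change was -0.77 ± 0.19 with an adjusted p of 0.05002, just above the threshold, and it was called with DESeq2 (1 member) and in 4 other alternatives of 16. Fibroblasts, which carry high Fap per nucleus, were 18.9% to 36.6% of the nuclei in the WT mice and 5.86% to 21.8% in the Taz-KO mice, ranges that overlap. The lowest share was in Taz-KO 4685, where 79.9% of the nuclei had no name. Of the named nuclei, fibroblasts were 25.4% to 48.3% in WT and 21.9% to 29.2% in Taz-KO mice, the latter highest in 4685. The other members' values over all nuclei ran from -0.31 for Lox to 1.014 for Comp.

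The 3 fibroblast clusters were built without the members and without the pathway genes that are not also cell type markers. Acta2, Tagln, Cnn1 and Pdgfrb, which mark smooth muscle cells or pericytes, were not kept out of the clustering. Cluster 2 (16534 nuclei) was led by Gfpt2, Has2 and C7, cluster 3 (15342 nuclei) by Kcnip1, Gfra1 and Bmper, and cluster 8 (5260 nuclei) by Nkain3 and Sntg1. Their shares of the fibroblasts overlapped between the genotypes, with cluster 2 at 43.9% to 46.5% in WT and 41.7% to 47.5% in Taz-KO. Cluster 3 took 39.3% to 42.2% and 38.8% to 43.3%, and cluster 8 took 12.3% to 16.1% and 12.7% to 18.8%. No cluster was thus made up of 1 genotype. However, the correction for the mouse draws mice of both genotypes together, and the members took no part in the clustering. These shares therefore cannot decide whether there is a fibroblast state of 1 genotype.

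The members differed in where within the fibroblasts they were highest. Fap was highest in cluster 3 in 8 of 8 mice. Cilp and Meox1 were highest in cluster 2 in 7 of 8 mice, and Comp in cluster 8 in 7 of 8. Postn was highest in cluster 2 in 5 mice and in cluster 8 in 3, and never in cluster 3. In cluster 2 it was at 64.2, 99.0, 128 and 66.2 CPM in WT hearts and 262, 243, 224 and 102 CPM in Taz-KO hearts, where 5301 came within the WT range. In cluster 3 the values were 40.3, 64.2, 77.3 and 21.4 CPM and 144, 123, 115 and 1.30 CPM. Within cluster 3 the genotypes did not overlap for 2 members, and they overlapped for all 10 in clusters 2 and 8, beside 3.52%, 4.1% and 2.08% of genes without overlap and higher in the knockouts. Tnc in cluster 3 was at 2.92, 2.02, 4.13 and 2.15 CPM in WT hearts and 11.9, 6.12, 6.07 and 5.20 CPM in Taz-KO hearts. Ltbp2 there was at 8.10, 9.62, 12.99 and 7.69 CPM in WT hearts and 13.6, 22.02, 20.6 and 22.1 CPM in Taz-KO hearts, with the highest WT and the lowest knockout value close. These values were picked out after they were seen and were not tested. Taz-KO 4685 and 5301 had only 198 and 691 fibroblasts over all clusters, so their values for 1 cluster rest on few UMIs.

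Some fibroblast nuclei were rich in Postn, though most of the Postn UMIs lay in the other nuclei. Nuclei with 10 or more Postn UMIs, a limit set after the counts were seen, numbered 17, 36, 34 and 17 in the WT mice and 5, 47, 19 and 1 in the Taz-KO mice. They were 0.228% to 0.525% of WT fibroblasts and 2.53%, 0.877%, 0.328% and 0.145% of Taz-KO fibroblasts, so the genotypes overlapped. The 95% binomial interval (Clopper-Pearson) in mouse 4685 ran from 0.825% to 5.79%, as it had 198 fibroblasts, and it covers counting error only. The limit was not thinned for depth, and the share was highest in the mouse with the deepest fibroblasts (4685, median 7877 UMIs) and lowest in that with the shallowest (5301, 2887 UMIs). The median UMI count of these nuclei was 8199, 8768, 6672 and 8354 in WT hearts and 9269, 6816, 5852 and 6347 in Taz-KO hearts, above that of all fibroblasts in each mouse, and the part of depth in these counts was not tested. These nuclei held 1815 of the 11284 fibroblast Postn UMIs in WT and 1215 of 8408 in Taz-KO, and between 10.5% and 17.8% in each mouse other than WT 5356 (30.2%), with up to 77 UMIs in 1 nucleus. By cluster, 79, 3 and 22 of the 104 WT nuclei and 51, 3 and 18 of the 72 Taz-KO nuclei were in clusters 2, 3 and 8.

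Nuclei chosen by Postn also carried more of several other members, in both genotypes. For these ratios the nuclei were pooled over the mice of a genotype, and 47 and 19 of the 72 Taz-KO nuclei came from 4910 and 5300. Thbs4 CPM in them was 43.0 times that of the other fibroblasts in WT and 22.5 times in Taz-KO, with a Thbs4 UMI in 24 of 104 and 16 of 72 nuclei. The ratio was 16.3 and 6.89 for Ltbp2, 11.9 and 9.54 for Tnc, 11.4 and 5.40 for Cilp, and 7.33 and 2.85 for Meox1. A ratio also depends on the level in the other fibroblasts. Cilp was at 519 CPM in the Postn-rich nuclei in WT and 542 in Taz-KO, and at 45.5 and 100 CPM in the others. Meox1 was at 221 and 137 CPM in the Postn-rich nuclei and at 30.1 and 48.0 CPM in the others. Comp had ratios of 1.83 and 3.49, Fn1 of 1.34 and 2.11 and Lox of 1.502 and 1.24, while Fap was lower in these nuclei, at 0.630 and 0.615. The ratios rest on few nuclei, are given without a test, and show that Postn-rich nuclei of this kind were present in WT hearts too.

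**Figure D5:**
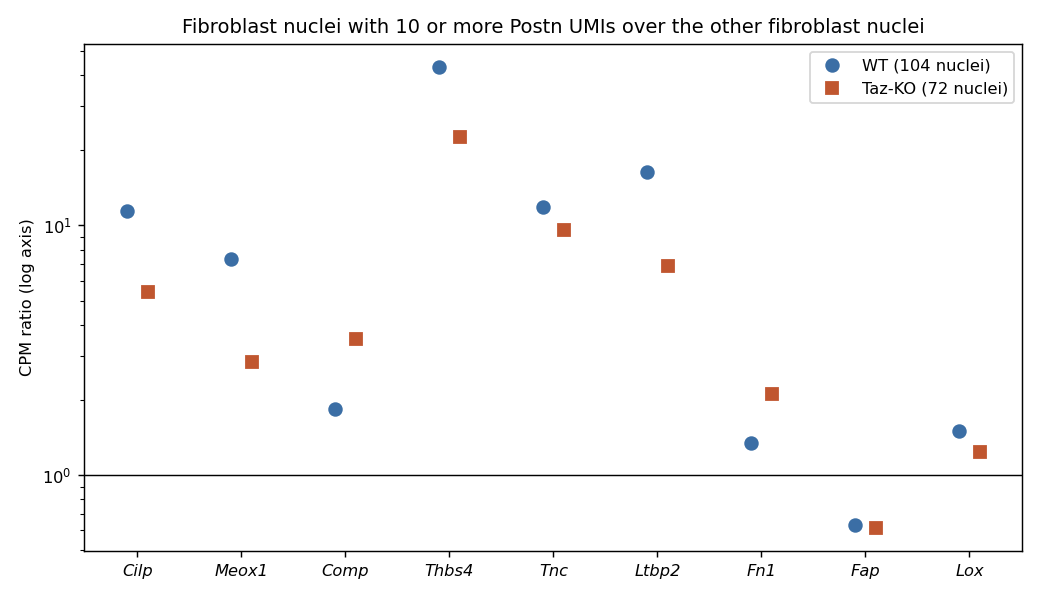
Ratio of CPM in fibroblast nuclei with 10 or more Postn UMIs to CPM in the other fibroblast nuclei, on a log axis, for the 9 other members, in WT (104 nuclei) and Taz-KO (72 nuclei). Nuclei are pooled over the mice of a genotype. Thbs4, Ltbp2, Tnc, Cilp and Meox1 lie well above 1 in both genotypes, and Fap lies below 1.

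The rest of the fibrosis programme was read from 6 lists with 110 genes, of which 109 could be tested in fibroblasts. Of these 1 gene passed, Ccn4, where 0.361% of all genes tested did. A fold change above 0 was found for 57 of 109, beside 50% of all genes tested. Ccn4 encodes a secreted matricellular protein induced by Wnt signals. It was at 1.07, 1.07, 0.823 and 0.827 CPM in WT hearts and 2.99, 4.42, 3.32 and 1.88 CPM in Taz-KO hearts, so that all 4 knockouts, 5301 included, lay above all WT mice. Its log2 fold change was 1.75 ± 0.29 (edgeR, adjusted p = 0.0386). The fibroblasts of Taz-KO 4685 and 5301 held 1671465 and 2122793 UMIs in all, so their Ccn4 values rest on few UMIs. In endothelial cells Ccn4 was at 0.461, 1.91, 1.39 and 1.36 CPM and at 4.05, 5.81, 4.42 and 3.37 CPM. That was above the fibroblast value of the same mouse in every mouse but WT 4686. The call was lost with any 1 of the 4 WT mice or of Taz-KO 4685, 4910 and 5300 left out. It was also lost with no filter on low counts, at the lower clustering resolution, with only nuclei of at least 2000 UMIs, with an ambient share subtracted and with nuclei chosen by their own UMIs.

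The 12 contractile genes, which set a myofibroblast apart from other fibroblasts, were split evenly in direction. Of them 6 lay above 0 and 6 below with none past the threshold and a median log2 fold change of 0.10. Acta2, the smooth muscle actin that serves as the usual myofibroblast marker, was at 23.2, 42.8, 60.7 and 12.7 CPM in WT hearts and 58.6, 93.3, 114 and 25.9 CPM in Taz-KO hearts (1.00 ± 0.53, adjusted p = 0.640). In endothelial cells, which should lack it, Acta2 was at 29.9, 48.2, 61.1 and 11.8 CPM and at 33.7, 107, 124 and 28.1 CPM. Acta2, Tagln and Cnn1 of this list are also among the smooth muscle markers, and they were not kept out of the clustering. Palld, an actin-bundling protein, had the value farthest below 0, at 318, 409, 254 and 335 CPM against 93.9, 206, 173 and 100.3 CPM (-1.27 ± 0.28, adjusted p = 0.117), and its mice did not overlap, as was so in this direction for 1.67% of all genes. In endothelial cells Palld was higher in level and did not overlap either, at 449, 517, 337 and 492 CPM against 194, 286, 234 and 159 CPM.

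Of the 13 collagens, 10 lay above 0 and 3 below, with 0 past the threshold and a median of 0.04. Col8a1, a short-chain collagen of vessels and injured tissue, was at 966, 914, 1086 and 1116 CPM in WT hearts and 2084, 1675, 1052 and 2184 CPM in Taz-KO hearts (0.70 ± 0.25, adjusted p = 0.349). In endothelial cells Col8a1 was at 151, 156, 154 and 108 CPM against 105, 178, 192 and 82.1 CPM. Col11a1 had a larger value (1.39 ± 0.73, adjusted p = 0.641) that rested on Taz-KO 4910 at 23.6 CPM, with every other mouse at 4.66 CPM or less. The 16 genes of collagen processing and cross-linking, the group of Lox, split 8 to 8 around a median of 0.01, with P4ha3 at 0.60 ± 0.36 and Loxl4 at 0.56 ± 0.43.

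The 29 matricellular and glycoprotein genes, which hold Ccn4, had 17 values above 0 and 12 below (median 0.11). The 21 signals and transcription factors tested split 11 to 10 (median 0.01), and none passed. Runx1, a transcription factor, was at 42.6, 46.3, 50 and 63.4 CPM in WT hearts and 27.5, 34.2, 35.7 and 24.97 CPM in Taz-KO hearts (-0.78 ± 0.17, adjusted p = 0.115). It did not overlap, as was so in this direction for 1.67% of all genes. In endothelial cells it did not overlap either, at 47.3, 52.0, 49.5 and 75.3 CPM against 22.9, 34.2, 39.8 and 34.8 CPM. Scx, a transcription factor of tendon and collagen genes, had a value of 0.82 ± 0.53 (adjusted p = 0.751). Of the 18 proteases and inhibitors 5 lay above 0 and 13 below (median -0.21), with Adamts4 at -1.22 ± 0.84 (adjusted p = 0.791) and Mmp3 at -1.11 ± 0.40 (adjusted p = 0.361). Mmp3, a matrix metalloproteinase, was at 17.1, 18.98, 37.5 and 14.9 CPM in WT hearts and 14.4, 13.3, 11.3 and 3.30 CPM in Taz-KO hearts. It did not overlap, again beside 1.67% of all genes, and the lowest WT and the highest knockout value were close. In endothelial cells its values overlapped, at 6.82, 14.4, 24.6 and 5.18 CPM against 2.70, 7.03, 9.71 and 2.25 CPM. With DESeq2, 3 genes of the 6 lists were called, Ccn4 higher and Palld and Runx1 lower.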

How the data were processed

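Nuclei from the hearts of 4 WT and 4 Taz-KO mice were sequenced with a 3′ droplet kit. The deposited values are uncorrected UMI counts, which the authors obtained with Cell Ranger 6.0.1 on mm10, intronic reads included. Their corrections for ambient RNA and doublets came after these counts and were not applied here other than as stated. Barcodes with at least 800 UMIs outside mitochondrial genes and 250 genes were used (167495 of 169193), and 16231 of them were removed for a high doublet score. No limit was set on the mitochondrial share, and the paper kept fewer nuclei in all. Nuclei were clustered on 15 components of 2000 variable genes (members and list genes left out), corrected for the mouse by the Harmony algorithm written anew, with the Leiden method at a resolution of 0.9 (python-igraph 0.11.9, numpy 2.4.6). Clusters were named by likeness to a cell type from fixed marker lists, and the score limits for naming were set after the scores were seen. Of the nuclei 110682 were named and 40582 were not. B-lymphocytes, T-lymphocytes and Schwann cells had too few nuclei per mouse for a test.

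For each cell type the counts of a mouse were added up, and genotypes were compared in R 4.3.3 by edgeR 4.0.16 (TMM, filterByExpr, robust quasi-likelihood F test, Benjamini-Hochberg adjustment over all genes tested in a type, threshold 0.05), after the fits were tested on simulated data. DESeq2 1.42.0 was an alternative. The authors tested single nuclei with an adjustment for the individual mouse, where the mouse is the unit here. Log2 fold changes are fitted values with their SE. CPM are UMIs per 1000000 UMIs outside mitochondrial genes, and types with fewer than 10 nuclei in a mouse gave none. Thinned shares are exact expected shares, and intervals cover counting error only.

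The members and lists were chosen with earlier results of these data known. The text names the 10 members, Taz, list genes past the threshold or otherwise the 2 largest fold changes of a list, and the 3 genes most like each member. The fibroblast excess over other cell types, the limit of 10 Postn UMIs, the unnamed cluster and the marker genes named in examples were chosen after values were seen. Per-mouse replicate numbers are the names of the mice.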

Additional observations from a re-analysis of the deposited data

Results flagged for a closer look

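In 40 groups of 4 mice (10 members, 2 genotypes, fibroblasts and all nuclei), 3 held a mouse far from the other 3 by Dixon's test at 95%, and chance alone flags about 1 group in 20. Thbs4 in fibroblasts was at 1.413 CPM in Taz-KO 5301, where the other knockouts were at 10.7 to 12.6 CPM. The fibroblasts of 5301 held 2122793 UMIs in all, so this value rests on few Thbs4 UMIs. Fn1 in fibroblasts was at 57.77 CPM in WT 5356, beside 95.5 to 101 CPM in the other WT mice. Fn1 over all nuclei was at 42.22 CPM in the same mouse, beside 73.1 to 76.9 CPM in the others.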

How the results depend on the processing

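The count of members past an adjusted p of 0.05 in fibroblasts was 0 under every alternative run, each library left out included. The number of genes of any kind called there ran from 0 with an ambient share subtracted to 343 with DESeq2, and from 6 to 132 with 1 library left out. Over all nuclei the member count was 1 (Fap) with DESeq2, with no filter on low counts and with doublets kept, and 0 to 1 with 1 library left out (1 without WT 5355 or Taz-KO 5301). In the other cell types it was 2 with no filter, 4 without both libraries of few barcodes, 0 with an ambient share subtracted, 0 with nuclei of at most 5% mitochondrial UMIs (1 type could be fitted, and fibroblasts could not), and 0 to 3 with 1 library left out. Genes called in the 6 lists were 3 with DESeq2, 0 with no filter, at the lower clustering resolution of 0.5, with nuclei of at least 2000 UMIs, with an ambient share subtracted and with nuclei chosen by their own Pdgfra, Bicc1 and Ryr2 UMIs, and 0 to 1 with 1 library left out. Of the member values under alternatives 321 kept their direction and side of the threshold, 5 (Fap over all nuclei) passed it, and 4 changed sign. Sign changes were Fap in fibroblasts (0.0087 without WT 5356 and 0.092 without Taz-KO 5300, in a range of -0.32 to 0.092 with 1 library left out), Lox in fibroblasts (0.066 without both libraries of few barcodes) and Meox1 over all nuclei (-0.078 without Taz-KO 4685, in a range of -0.078 to 0.50). The cause was not tested. The difference between genotypes in the fibroblast excess of Postn over endothelial cells, 25.02 CPM, was 16.8, 22.6 or 23.8 CPM in its 3 added alternatives. The alternatives for the lists, the unthinned shares, the excess and the means per cell type without 1 mouse were added after seeing the data. No paired analysis was made, since each replicate number names a single mouse and no litter, batch or day is given. Whether the mice were paired by design is therefore not known. With 198 and 691 fibroblasts, Taz-KO 4685 and 5301 limit the precision of every comparison, and Tnc and Thbs4 rest on 922 and 1357 UMIs over 8 mice.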

Other observations

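Tnc had a mean over mice of 49.8 CPM in 1621 nuclei without a name, left over from a cluster that scored highest for smooth muscle. This was above its mean in each of the 9 cell types tested but not above that in Schwann cells (52.6 CPM over 6 mice, where it was not tested). Sub-clusters of 943 and 574 of these nuclei scored highest for fibroblast markers, below the limit for a name, and were not counted as fibroblasts. Tnc was among the leading genes of the larger one. Over the 1621 nuclei Tnc was at 10.2, 4.50, 83.8 and 7.37 CPM in WT hearts and 0, 15.9, 12.6 and 264 CPM in Taz-KO hearts. The values come from 149 UMIs, and the mean rests on 1 mouse of each genotype, WT 5355 and Taz-KO 5301, which were far above the others.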
